A study of Mus musculus with 12 samples.

Results

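Astrocytes were examined in the cortex of 21-day-old (P21) mice carrying a frameshift in Myt1l, a transcription factor gene active in neurons. A nucleus was called an astrocyte from its own transcripts. Among barcodes with at most 12000 unique molecular identifiers (UMIs, the counted molecules) and at most 1% mitochondrial UMIs, it had to hold at least 2 UMIs of Slc1a3, 2 of Gpc5 and 3 of Slc1a2, and 0 UMIs of Rbfox3, of Slc17a7, Gad1 and Gad2 in sum, and of Pdgfra. This selected 154 of 71914 kept nuclei, 0.214% of them. The 12 animals, 6 wild type (WT) and 6 heterozygous (Het), were of the MYT1L S710fsX strain, a C57BL/6 line, with 3 males and 3 females in each genotype. Per the study's methods, pups of this line, WT and Het alike, received ventricular injections of AAV9 vectors carrying calling-card constructs with a tdTomato reporter, the P21 tissue came from several litters, and the nuclei were isolated over an iodixanol gradient. The mutation is in the germ line, so every cell of a Het animal carried it, and the replicate is the animal.

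Astrocytes are the glial cells that tile the cortex and wrap its synapses. They clear glutamate through the transporters Slc1a2 (GLT-1) and Slc1a3 (GLAST), buffer potassium and water, couple to each other through gap junctions, supply lipids and lactate, and secrete proteins that shape synapses. In the weeks after birth they mature alongside these synapses. MYT1L itself is known as a neuronal factor, so a comparison of Het with WT astrocytes asks whether a cell type that transcribes little of the mutated gene differs between the genotypes.

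Of the 154 astrocyte nuclei, 55 came from WT and 99 from Het animals. Each animal gave between 2 and 31 of them, and 8 animals gave at least 10. WT animals held from 0.0526% to 0.413% astrocytes among their kept nuclei, with a median of 0.136%. Het animals held from 0.104% to 0.535%, with a median of 0.224%. The ranges overlapped over most of their width. The WT mean was 0.170% ± 0.129 (SD, n = 6) and the Het mean 0.260% ± 0.150 (SD, n = 6), a difference that did not pass an exact two-sided permutation test over all relabellings of the animals (p = 0.305). It moved with single animals, to 0.138 percentage points without WT female 1 (exact permutation test, p = 0.0519) and 0.0341 without Het female 2 (p = 0.621). The difference between genotypes was 0.0538 percentage points in males and 0.125 in females, and an exact permutation test of the difference between the sexes did not pass (p = 0.655). Set against the 8293 nuclei with no UMI of the neuronal exclusion genes, astrocytes made up 1.86%. A gradient, the required UMIs and the UMI floor of each library (given below) all bear on such shares. They are shares of the nuclei recovered and called here, not of cells in the tissue.

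**Figure D1:**
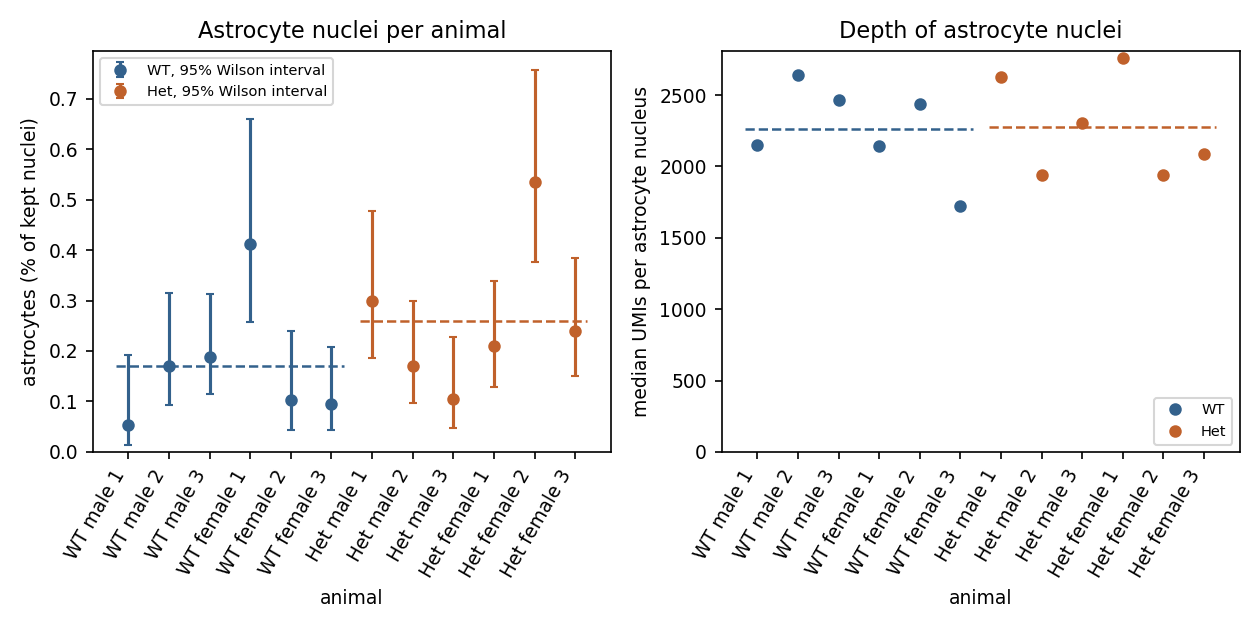
Left, astrocytes as a percentage of kept nuclei in each of the 12 animals, with 95% Wilson intervals that cover counting error only. Right, the median number of UMIs per astrocyte nucleus. Dashed lines are genotype means; WT female 1 (0.413%) and Het female 2 (0.535%) stand highest in the left panel, and the genotype means of 2261 and 2277 UMIs in the right panel nearly coincide.

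The astrocyte nuclei were shallow. They held a median of 2206 UMIs (range 1508 to 7865) and 1304 genes, against a median of 4956 UMIs in all other kept nuclei. The demand for 0 UMIs of the exclusion genes can favour shallow nuclei. How far the rule bears on this depth was not tested. Oligodendrocyte precursors (2427 UMIs) and oligodendrocytes (2575 UMIs) had similar depths, but they were chosen with the same demand on the neuronal genes. The median per animal was 2261 ± 326 UMIs (SD) over the 6 WT and 2277 ± 351 over the 6 Het animals (exact permutation test, p = 0.939). The smallest barcode in each deposited library held between 1502 and 2182 UMIs, so nuclei with fewer UMIs were not analysed here. The highest of these floors lay near the astrocyte median of 2206 UMIs and well below the 4956 of the other nuclei. How the floors bear on the shares and depths per animal was not tested. Of the 154 nuclei, 148 also lay within the study's own limits on UMIs, genes and complexity. No cell barcode was shared between animals (0 shared barcodes).

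The thresholds decide membership, so the levels of their genes are a description. A median astrocyte held 29.0 UMIs of Slc1a2, 28.0 of Gpc5 and 8.00 of Slc1a3. At the edge, 13 nuclei held exactly 2 Slc1a3 UMIs and 9 nuclei fell just below with every other condition met. Those 13 held 10.9 UMIs per 1000 of the astrocyte identity list described next, and those 9 held 4.57. For Gpc5 and Slc1a2 no astrocyte sat on the threshold (0 nuclei), and 1 and 3 nuclei respectively fell just below it. The exclusion genes removed more nuclei than they left. Of 340 nuclei that passed the 3 positive thresholds, 186 were excluded, 145 of them with Rbfox3 (a neuronal splicing factor), 114 with Slc17a7, Gad1 or Gad2 (glutamatergic and GABAergic neurons) and 26 with Pdgfra (oligodendrocyte precursors).

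The label was checked against 30 astrocyte identity genes that the selection did not use. All 30 were detected, and all 30 stood above 2-fold of their level in the other kept nuclei. Pooled over nuclei, their sum was 15.3 UMIs per 1000 UMIs in astrocytes, 0.465 in the other kept nuclei, 1.5 in oligodendrocyte precursors and 0.491 in oligodendrocytes. Single nuclei held UMIs of 5 to 27 of the 30 genes, with a median of 15. Levels of single genes are given as counts per 1000000 UMIs (CPM). Aqp4, the water channel of astrocyte endfeet, reached 171 CPM against 0.756 CPM in the other nuclei. Sox9, a transcription factor of the astrocyte lineage, reached 90.5 CPM against 0.924. Aldh1l1, a folate enzyme used as a pan-astrocyte marker, reached 110 CPM against 6.91. The cells compared were chosen on their transcripts, so these contrasts carry no test.

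**Figure D2:**
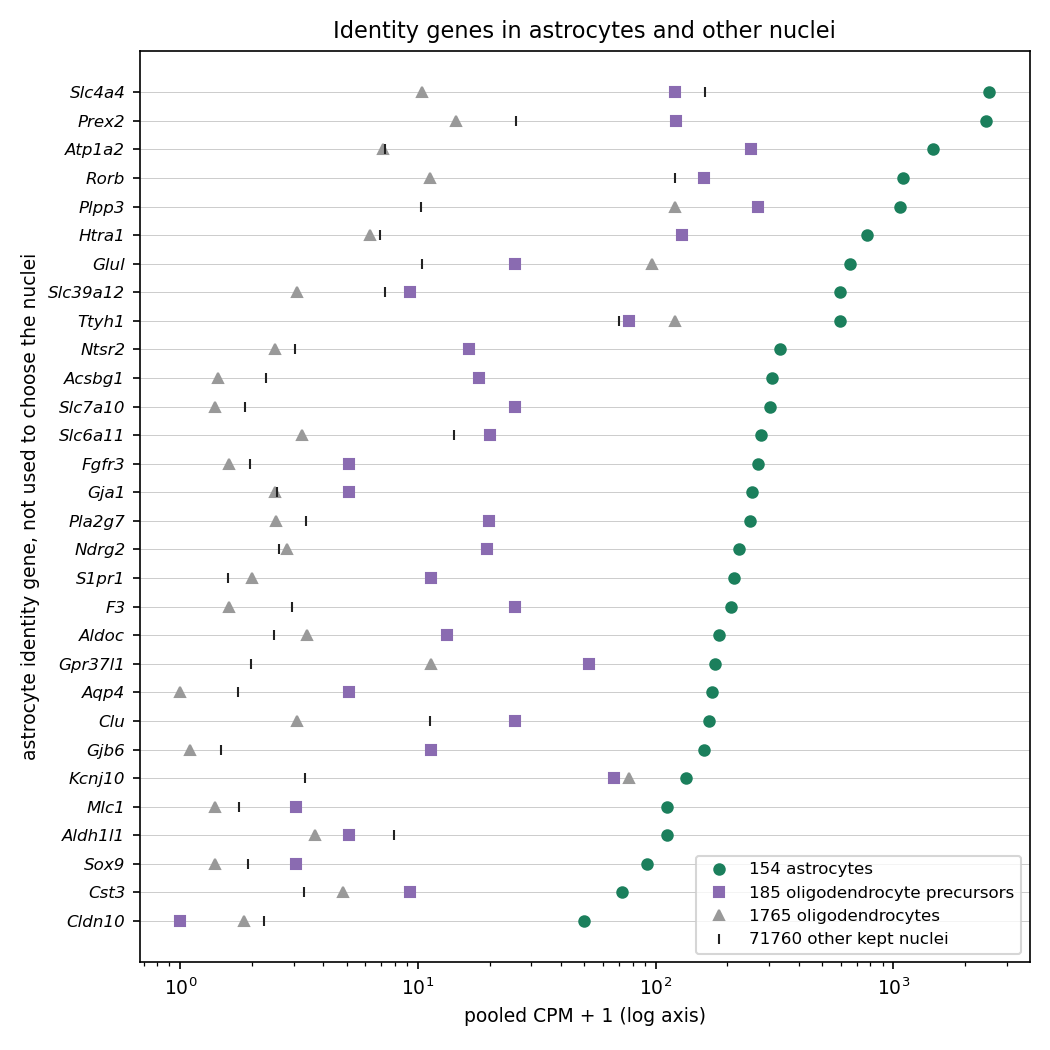
Pooled level (CPM + 1, log axis) of each of the 30 identity genes in the 154 astrocytes, 185 oligodendrocyte precursors, 1765 oligodendrocytes and the 71760 other kept nuclei. For every gene the astrocyte point lies to the right of the others, and Kcnj10, a potassium channel (133 CPM against 76.0 in oligodendrocytes), is the closest.

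Ranked by the ratio of astrocytes to all other kept nuclei among genes of at least 50 CPM, the 10 leading genes were Slco1c1, Cyp4f15, Dio2, Grin2c, Etnppl, S1pr1, Slc7a10, Gjb6, Eva1a and Fgfr3. Slco1c1, a transporter that takes up thyroid hormone, stood at 1139 CPM against 1.79 in the other nuclei and had UMIs in 129 of 154 nuclei. By animal it ran from 539 CPM in WT female 2 to 2092 CPM in WT male 1. Dio2, the deiodinase that converts thyroxine to its active form, stood at 396 CPM against 0.808, and ran from 143 CPM in WT female 1 to 767 CPM in WT female 3. Both genes act in thyroid hormone supply to the brain. Cyp4f15, a cytochrome P450 enzyme, stood at 137 CPM against 0.258. Grin2c, an NMDA receptor subunit, stood at 435 CPM against 0.956, and Slc7a10, a transporter of small neutral amino acids, at 301 CPM against 0.870. All 10 genes lay above the other nuclei in each of the 8 animals with at least 10 astrocytes. In order of the list, the ratios ran from 638 down to 279.

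The windows of 250 bases before the start of the 3 leading genes are shown because these genes separate the astrocytes most sharply. They come from RefSeq on GRCm38.p6 (mm10) and are written 5′ to 3′ on the strand of the gene. Slco1c1 lies at chr6:141524104-141524353 (plus strand), Cyp4f15 at chr17:32685409-32685658 (plus strand) and Dio2 at chr12:90739039-90739288 (minus strand). Capitals mark TTGGC, the core of the nuclear factor I (NFI) motif, and ACAAAG, a SOX motif, on either strand. NFI and SOX proteins are known as factors of astrocyte development.
Slco1c1: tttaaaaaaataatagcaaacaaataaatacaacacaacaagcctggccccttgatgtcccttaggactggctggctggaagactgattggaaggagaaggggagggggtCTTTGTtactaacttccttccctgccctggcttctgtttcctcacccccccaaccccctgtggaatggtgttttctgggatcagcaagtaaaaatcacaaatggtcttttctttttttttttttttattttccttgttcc
Cyp4f15: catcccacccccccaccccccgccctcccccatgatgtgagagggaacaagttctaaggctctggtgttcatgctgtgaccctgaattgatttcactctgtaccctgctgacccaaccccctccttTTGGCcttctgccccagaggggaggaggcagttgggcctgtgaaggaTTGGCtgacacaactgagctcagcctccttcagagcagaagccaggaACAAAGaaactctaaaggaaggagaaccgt
Dio2: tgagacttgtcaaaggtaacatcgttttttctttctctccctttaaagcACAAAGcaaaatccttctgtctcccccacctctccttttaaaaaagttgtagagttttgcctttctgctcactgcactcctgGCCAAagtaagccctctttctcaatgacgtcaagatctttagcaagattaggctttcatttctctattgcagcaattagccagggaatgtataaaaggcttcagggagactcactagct
Slco1c1 holds 0 copies of TTGGC and 1 of ACAAAG, Cyp4f15 holds 2 and 1, and Dio2 holds 1 and 1. Of the 10 leading genes, 9 had such a window, with 11 windows in all. TTGGC was in 4 of the 11, against 41.5% of all 32851 promoter windows of this length. ACAAAG was in 3 of the 11, against 16.5% of all. The full NFI palindrome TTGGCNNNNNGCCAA was in 0 of the 11, against 0.0365% of all. These matches describe letters only.

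Transcripts of marker genes of other cell types were measured in the astrocyte nuclei with 6 lists. Whether they were carried over or transcribed in these nuclei was not tested. Genes of the neuron list were the most abundant, at 4.26 per 1000 of 17 genes. This was below the 51.5 of the other kept nuclei and the 14.1 of oligodendrocyte precursors, and above the 2.54 of oligodendrocytes. Csmd1, expressed in neurons and in oligodendrocyte precursors, led that list at 899 CPM. The oligodendrocyte list reached 2.43 per 1000, against 0.563 in the other nuclei and 29.8 in oligodendrocytes. It came from few nuclei, since Mbp, encoding myelin basic protein, had UMIs in 15 of 154, and 11 nuclei met the oligodendrocyte definition used here. The precursor list stood at 0.854 per 1000, with Neu4 and C1ql1 at 0. Its leading gene, Xylt1, encodes an enzyme that starts proteoglycan chains.

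The microglia list stood at 0.521 per 1000, against 0.0725 in the other nuclei, with all 12 genes detected. Its summed level ran from 0 to 1.43 per 1000 in WT animals and from 0.0277 to 1.06 in Het animals, and 15 astrocyte nuclei held at least 2 UMIs of it, 12 from WT and 3 from Het animals. The endothelial and mural list was at 0.0923 per 1000, with 7 of 12 genes at 0, among them the defining endothelial markers Cldn5 and Tek. Its leading gene, Pdgfrb, a pericyte receptor, stood at 61.1 CPM in 24 nuclei. The fibroblast and ependymal list was at 0.266 per 1000, led by Bnc2, whose UMIs sat in 7 nuclei and gave 578 CPM in Het male 1 and 518 CPM in Het male 2. No list passed the test between genotypes over 6 WT and 6 Het animals. The microglia list had 0.833 ± 0.600 per 1000 in WT and 0.285 ± 0.394 in Het (exact permutation test, p = 0.102, Benjamini-Hochberg adjusted p over the 6 lists 0.448), with adjusted p from 0.448 to 0.926 over all 6. Without WT male 1 or without Het male 3, whose astrocytes numbered 2 and 6, the unadjusted exact p of the microglia list was 0.0303 and 0.0433. With any other single animal left out, this exact permutation p ran from 0.0584 to 0.177. Without the 3 nuclei that also met a microglia definition, described with the called genes, the difference was −0.240, against −0.548 with them, per 1000 UMIs (exact permutation test, p = 0.379). By doublet score, 10 astrocyte nuclei lay in the top 5% of their animal.

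The functional gene lists describe what these nuclei transcribed. The share of all genes above 2-fold of the other kept nuclei is not given beside them. The counts below therefore describe the lists and do not single them out. Levels between genes are compared as CPM per kilobase (kb) of exon. In glutamate and GABA handling, all 17 genes were detected, 14 stood above 2-fold of the other nuclei and 11 above 2-fold of oligodendrocyte precursors. Slc1a2, one of the genes used for selection, led per length at 882 CPM per kb. Glul, glutamine synthetase, stood at 655 CPM against 9.37 in the other nuclei. Glud1, the mitochondrial glutamate dehydrogenase, stood at 506 CPM against 48.0.

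For potassium, water, chloride and gap junctions, 16 of 20 genes stood above 2-fold of the other nuclei and 13 above 2-fold of oligodendrocyte precursors. Slc4a4, a sodium bicarbonate cotransporter, led per length at 234 CPM per kb and 2530 CPM. Gja1 and Gjb6, which encode the astrocyte connexins 43 and 30, stood at 252 and 159 CPM against 1.55 and 0.488. Kcnma1, a calcium-gated potassium channel, was lower than in the other nuclei, at 496 CPM against 1912.

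Transmitter receptors were mixed, with 16 of 30 genes above 2-fold and 20 above the other nuclei at all. Against oligodendrocyte precursors 13 stood above 2-fold. Grm3, a metabotropic glutamate receptor, led per length at 845 CPM per kb and reached 2575 CPM against 256. Grm5, the metabotropic receptor of young astrocytes and of neurons, stood at 244 CPM against 2305. Among AMPA receptor subunits, Gria2 was at 1846 CPM against 1546, while Gria1 was at 173 against 1330. Ntsr2, a neurotensin receptor, stood at 333 CPM against 2.03.

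Genes of synapse organization and matrix had 23 of 35 above 2-fold. Gpc5, a glypican used for selection, led per length at 2497 CPM per kb. Sparcl1 (hevin), a secreted synaptogenic protein, stood at 1280 CPM against 58.3, Mertk, a phagocytic receptor, at 1969 against 10.7, and Chrdl1, a secreted regulator of synapse maturation, at 124 against 1.44. Thrombospondins were low, with Thbs1 and Thbs2 both at 4.89 CPM (under the 7.34 CPM that 3 UMIs in all members would give) and Thbs4 at 14.7 CPM. Oligodendrocyte precursors shared part of this list, since 18 of the 35 genes were above 2-fold of them. Ptprz1, a receptor phosphatase that binds pleiotrophin, was at 3008 CPM in astrocytes and 3458 in precursors.

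Metabolic genes were nearly all higher than in the other kept nuclei, and fewer stood above 2-fold of oligodendrocyte precursors. In lipid and sterol metabolism 25 of 27 genes stood above 2-fold of the other nuclei and 20 above 2-fold of precursors. Plpp3, a lipid phosphatase, led per length at 337 CPM per kb. Apoe, the main lipid carrier of the brain, stood at 257 CPM against 5.78, and Acsl3, an acyl-CoA synthetase, at 1149 against 50.8. Abcg1, a cholesterol exporter, had 0 UMIs among the 408912 UMIs of all astrocytes, which allows up to 7.34 CPM, and stood at 18.8 CPM in the other nuclei. In glucose, glycogen and lactate metabolism 17 of 19 genes stood above 2-fold of the other nuclei and 16 above 2-fold of precursors. Phka1, a regulatory subunit of phosphorylase kinase, led per length at 131 CPM per kb. Pygb, brain glycogen phosphorylase, stood at 223 CPM against 23.8.

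Of 38 lineage transcription factors, 34 stood above 2-fold of the other nuclei and all 38 above them. Npas3 led per length at 585 CPM per kb. Nfia, an NFI family member, was at 2358 CPM against 184, Rfx4 at 397 against 2.96, and Gli3, an effector of sonic hedgehog signalling, at 721 against 5.77. Of 30 signalling receptors and hormone genes, 20 stood above 2-fold, led per length by Slco1c1 at 220 CPM per kb. Fgfr3, an FGF receptor, was at 269 CPM against 0.963, while Erbb4, the neuregulin receptor, was at 963 against 1507. Dll1, a Notch ligand, had 0 UMIs.

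Reactive astrocyte genes were low. Of 31 genes 20 were detected, 19 stood above 2-fold of the other nuclei (0.667 against 0.0693 per 1000 for the list), and 11, among them Lcn2, Serpina3n, C3 and Cxcl10, had 0 UMIs. In oligodendrocyte precursors the list stood at 0.414 per 1000. C4b, a complement component, was the most abundant per length at 23.8 CPM per kb and 136 CPM, with UMIs in 40 nuclei. Vim, an intermediate filament, had 3 UMIs in all (7.34 CPM). None of the 31 reached the count filter of the genotype comparison, so 0 of them were tested.

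Gfap, the filament protein that marks fibrous and reactive astrocytes, had UMIs in 24 of 154 nuclei (15.6%, 95% Wilson interval 10.7 to 22.1). In oligodendrocytes of median depth 2575 UMIs the share was 0.227%, and in oligodendrocyte precursors of median depth 2427 UMIs it was 1.08%, against the median of 2206 UMIs in astrocytes. Nuclei were thinned to 1500 UMIs before the genotypes were compared, which left out 1 nucleus of Het male 2 that fell short of this number in whole UMIs, and so 11 of its 12 nuclei were used. WT animals then had from 0% to 16.7% of astrocytes with a Gfap UMI, with a median of 0%. Het animals had from 0% to 27.3%, with a median of 14.8%. The ranges overlapped, and the means of 4.44% ± 7.20 (SD, n = 6) and 14.5% ± 8.88 (SD, n = 6) did not pass the exact two-sided permutation test (p = 0.0671). Het exceeded the WT median of 0% in 5 of 6 animals, which means only that each of these held at least 1 such nucleus. Het animals had 99 astrocytes in all and WT animals 55. Unthinned, the means were 13.2% ± 11.1 and 22.1% ± 17.4 (exact permutation test, p = 0.331). By sex, the thinned difference was 17.2 percentage points in males and 2.91 in females, and the unthinned one 21.4 and −3.63, with an exact permutation p of 0.150 for the difference between the sexes in each case. The thinned result rests on 2 WT and 13 Het nuclei with a Gfap UMI. All thinned values come from 1 random draw, and other draws were not tried. Without WT female 3 or without Het female 3 the thinned exact p was 0.0238 and 0.0173, with differences of 12.5 and 13.0 percentage points. With any other single animal left out, the exact permutation p ran from 0.0671 to 0.134.

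The nuclei with and without a Gfap UMI had median depths of 2179 and 2214 UMIs. Their identity lists stood at 15.7 and 15.2 per 1000. The genes of fibrous, pial and deep astrocytes other than Gfap stood at 3.52 and 3.19 per 1000, with Aqp4 at 240 and 159 CPM (15 and 55 UMIs) and Id3, an inhibitor of DNA binding induced by BMP signalling, at 79.9 and 23.1 CPM (5 and 8 UMIs). Vim, at 0 and 8.66 CPM, and Fgfr3 of the identity list, at 208 and 280 CPM, had the opposite order, and Unc5c (383 and 397 CPM) and Ablim1 (176 and 177 CPM) stood close together. No animal had 10 nuclei in both classes (0 animals), so these differences were not tested. In that list as a whole, Fgfr2 led per length at 87.5 CPM per kb. The whole list summed to 3.32 per 1000 in astrocytes, below the 4.58 of oligodendrocyte precursors and the 4.98 of oligodendrocytes.

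For Het against WT, UMIs were summed per animal over its astrocytes, and the 8 animals with at least 10 entered the fit, 3 WT and 5 Het with 135 nuclei and 27036 to 65944 UMIs each. The test was edgeR's quasi-likelihood test with Benjamini-Hochberg adjustment over all 1023 genes tested, and a call needed both an adjusted p below 0.05 and a log2 fold change of more than 0.2 in either direction. Het was lower for 6 genes (0.587% of those tested) and higher for 0 (0%), and 51 genes had an unadjusted p under 0.05, 28 lower and 23 higher. DESeq2 called 4, all lower in Het. The median log2 fold change over all genes was 0.00. The 5 described here were Pde3b, Tgfbr1, Elmo1, Tanc2 and Lrmda. All 5 stood higher in microglia than in astrocytes, and all 6 calls were lost when 3 nuclei that also met a microglia definition were left out. The coordinates given for these genes are mm10 and span the whole gene.

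Pde3b, a phosphodiesterase at chr7:114415281-114539251, stood at 324, 467 and 409 CPM in WT male 2, WT male 3 and WT female 1. It stood at 19.6, 37.0, 18.4, 15.2 and 22.4 CPM in Het male 1, Het male 2, Het female 1, Het female 2 and Het female 3, each of which is 1 UMI. The groups did not overlap, with a log2 fold change of −4.13 ± 0.62 (SE) and an adjusted p of 0.00232 by edgeR. Tgfbr1, a receptor for TGF-beta at chr4:47353222-47414931, stood at 292, 812 and 430 CPM in the WT animals in the same order. In the Het animals it stood at 137, 37.0, 18.4, 75.8 and 22.4 CPM. Again the groups did not overlap (log2 fold change −3.05 ± 0.49, edgeR adjusted p = 0.00315). The count filter asked for a minimum level in at least 3 animals, and for both genes only the 3 WT animals reached it. The lack of overlap was thus a condition of being tested and adds no support for either gene.

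Elmo1, an adaptor of engulfment and cell migration at chr13:20090596-20608353, stood at 454, 541 and 491 CPM in WT and at 216, 74.0, 36.9, 106 and 134 CPM in Het (log2 fold change −2.11 ± 0.39, edgeR adjusted p = 0.0108). Tanc2, a scaffold protein at chr11:105589986-105929304, stood at 616, 714 and 920 CPM in WT and at 196, 407, 258, 303 and 224 CPM in Het (−1.49 ± 0.29, edgeR adjusted p = 0.0118). Neither gene's groups overlapped. Elmo1 passed the count filter mainly through the WT animals, as every Het animal except Het male 1 stood at 36.9 to 134 CPM. Its lack of overlap was thus close to a condition of being tested and adds little support. Lrmda, at chr14:22019712-23056085, stood at 578, 320 and 859 CPM in WT and at 216, 166, 73.8, 258 and 123 CPM in Het (−1.81 ± 0.38, edgeR adjusted p = 0.0272). For Lrmda, too, every WT animal in the fit stood above every Het animal.

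Outside the fit the order was mixed. Het male 3, with 6 astrocytes, stood at 626 CPM for Elmo1, 501 for Tanc2, 313 for Lrmda, 188 for Pde3b and 125 for Tgfbr1. WT female 3, with 6 astrocytes, stood at 383, 575, 671, 95.8 and 575 CPM for the same genes. WT male 1 and WT female 2, with 2 and 5 astrocytes, had 0 CPM of Pde3b and Tgfbr1, where 3 UMIs would have given 697 and 202 CPM. With all 12 animals in the fit 0 genes were called (23 at an unadjusted p under 0.05).

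Microglial transcripts were measured beside these calls. In 68 nuclei with at least 2 UMIs each of Csf1r and Inpp5d, 2 genes of microglia, these 5 genes stood between 1780 and 2673 CPM. Of the astrocytes, 3 also met that definition, 2 from WT male 3 and 1 from WT female 1. They held 3.66, 11.0 and 6.85 UMIs of the microglia list per 1000 beside 8.25, 7.42 and 7.51 of the astrocyte identity list. In order, they held 3820, 2831 and 5989 of the 408912 UMIs of all astrocytes. These 3 nuclei carried 48.3% of all Pde3b UMIs in astrocytes, 36.0% of Tgfbr1, 33.3% of Elmo1, 24.1% of Lrmda and 22.9% of Tanc2. Without them WT male 3 fell from 467 to 147 CPM for Pde3b and WT female 1 from 409 to 140, while WT male 2, which held none of the 3, stayed at 324.

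Without these 3 nuclei the fit called 0 genes (33 of 900 tested at an unadjusted p under 0.05). Tanc2 then had a log2 fold change of −0.88 and Lrmda of −1.18 (edgeR adjusted p = 1.00 for both), and Pde3b, Tgfbr1 and Elmo1 no longer passed the count filter. Every WT animal in the fit remained above every Het animal for Pde3b (lowest WT 140, highest Het 37.0 CPM), Tgfbr1 (163 and 137) and Tanc2 (412 and 407), while Elmo1 (118 and 216) and Lrmda (118 and 258) overlapped. For Pde3b and Tgfbr1 this order with all nuclei had been a condition of being tested. Leaving out WT male 3 left 1 call (Lrmda), leaving out WT female 1 left 1 call (Tgfbr1) and leaving out WT male 2 left 5, 4 of them among the 6. The log2 fold change of Pde3b was −3.97 without WT male 3 and −4.11 without WT female 1, and that of Elmo1 −2.01 and −2.11. The fit without nuclei holding 2 or more UMIs of the microglia list, with 2 WT and 5 Het animals, also called 0 genes, and Tanc2, the gene of the 5 that could still be tested, had a log2 fold change of −0.47 (edgeR adjusted p = 0.993).

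**Figure D3:**
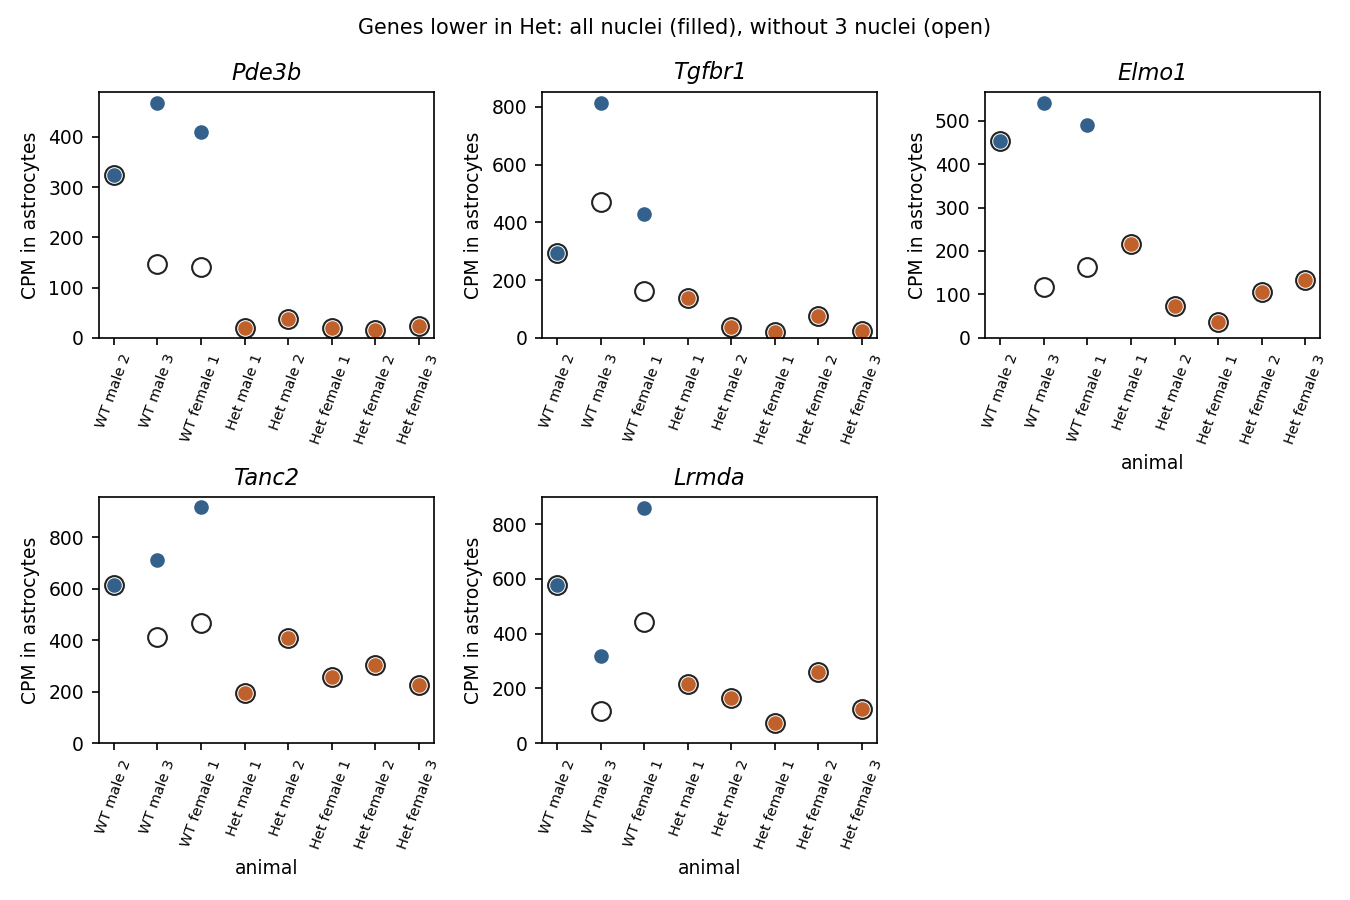
CPM in astrocytes of 5 genes called lower in Het, for the 3 WT (blue) and 5 Het (orange) animals in the fit. Filled points use all astrocytes and open circles leave out the 3 nuclei that also met the microglia definition; these lower WT male 3 and WT female 1 in every panel (Pde3b from 467 to 147 and from 409 to 140 CPM) and leave WT male 2 and the Het animals in place.

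Of the genes that were higher in Het, none passed the adjusted threshold (0 of 1023, with 23 at an unadjusted p under 0.05). The 5 with the smallest p were Robo2, Srgap3, Mid1, Cep128 and Cpeb3. Robo2, an axon guidance receptor for Slit proteins, stood at 32.4, 221 and 143 CPM in the WT animals and at 607, 481, 441, 298 and 201 CPM in the Het animals. Its groups overlapped (log2 fold change 1.49 ± 0.46, edgeR adjusted p = 0.362), and outside the fit WT female 3 reached 1150 CPM. The log2 fold change was 0.45 with all 12 animals and 0.74 without nuclei holding 2 or more UMIs of the microglia list. Srgap3, a GTPase activator that acts downstream of Robo receptors, stood at 324, 369 and 348 CPM in WT and at 568, 629, 652, 516 and 761 CPM in Het (0.81 ± 0.27, edgeR adjusted p = 0.538). Its groups in the fit did not overlap, but WT male 1 reached 697 CPM. Mid1, a microtubule-associated ubiquitin ligase, averaged 95.3 ± 29.1 CPM (SD) over the 3 WT and 540 ± 446 over the 5 Het animals, with 1309 in Het female 1 (edgeR adjusted p = 0.583). Cpeb3, an RNA-binding regulator of translation, stood at 64.8, 197 and 184 CPM in WT and at 392, 388, 324, 265 and 269 CPM in Het (1.03 ± 0.38, edgeR adjusted p = 0.598). Cep128, a centrosomal protein, had a log2 fold change of 1.13 ± 0.41 (edgeR adjusted p = 0.583). The 3 nuclei with microglial transcripts held 0.632% to 1.87% of the UMIs of Robo2, Srgap3, Mid1 and Cpeb3 and 0 UMIs of Cep128.

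The astrocyte gene lists held 0 called genes in either direction, which at a share of 0.587% of all genes called lower and 0% higher is no result about lists of this size. Of the 20 identity genes tested, 14 had a positive and 6 a negative fold change, with a median log2 fold change of 0.13 beside 0.00 for all genes. Single values ran from −0.62 for Ntsr2 to 0.94 for Aqp4, whose level was 64.8, 0 and 225 CPM in WT and 176, 185, 277, 273 and 89.5 CPM in Het (edgeR adjusted p = 0.986). Both values moved with single animals, since Aqp4 was at 0.39 without WT male 3 and 2.70 without WT female 1, and Ntsr2 at −0.27 without WT female 1. In glutamate and GABA handling (8 tested, median 0.09), Glud1 had a mean of 642 ± 134 CPM (SD) in the 3 WT animals and 432 ± 104 in the 5 Het animals, and Slc7a10 at 222 ± 47.0 and 352 ± 88.5. In potassium, water, chloride and gap junctions (10 tested, median 0.11), Hepacam, an adhesion protein of endfeet, stood at 233 ± 109 and 346 ± 87.9 CPM. The edgeR adjusted p was 0.986 for Glud1, Slc7a10 and Hepacam.

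Among transmitter receptors (14 tested, 7 positive and 7 negative, median 0.05), Gria2 averaged 1550 ± 62.1 CPM (SD) in the WT and 2122 ± 236 in the Het animals of the fit (edgeR adjusted p = 0.777). Among genes of synapse organization (17 tested, 13 positive, median 0.08), Mertk stood at 2493 ± 398 and 1703 ± 335 CPM and Nrcam, an adhesion molecule, at 793 ± 73.3 and 1244 ± 215 CPM (edgeR adjusted p = 0.598 for both). Mertk was positive at 0.26 instead of −0.56 once nuclei with any UMI of another cell type were left out, with 1 WT and 3 Het animals. In lipid metabolism (8 tested, median 0.01), Scd2, a desaturase, had a log2 fold change of 0.62 ± 0.37 and Acsl6, an acyl-CoA synthetase, of 0.40 ± 0.34. In glucose and glycogen metabolism (5 tested, median 0.13), Pygb had 0.80 ± 0.46 and Phka1 −0.22 ± 0.28. None of these 4 passed (edgeR adjusted p = 0.986 for each).

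Of 18 transcription factors tested (12 positive, median 0.12), Rorb, a nuclear receptor, had a log2 fold change of 0.58 ± 0.25 (edgeR adjusted p = 0.764) and Tcf7l2, a Wnt effector, of 0.61 ± 0.44 (edgeR adjusted p = 0.986). Of 17 signalling receptors (13 positive, median 0.11), Nr3c1, the glucocorticoid receptor, had −0.60 ± 0.34 (edgeR adjusted p = 0.986). The list of fibrous, pial and deep astrocyte genes had 6 tested genes and a median of 0.20, with Atp13a4, a cation transport ATPase, at 0.28 ± 0.40. Across all 1023 genes the fold changes ran from −0.65 at the 5th percentile to 0.68 at the 95th. The median standard error of a single gene was 0.37 on the log2 scale.

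**Figure D4:**
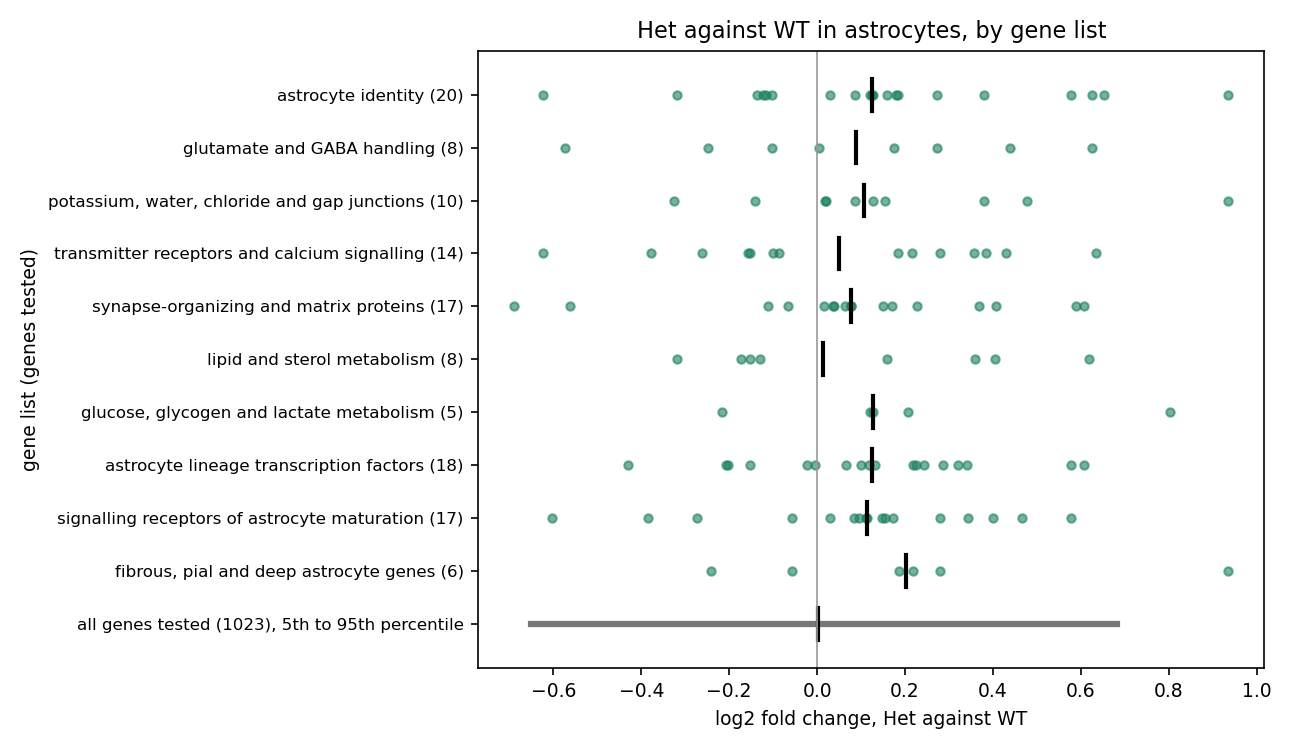
Log2 fold change of Het against WT in astrocytes for the tested genes of the identity list and each functional list (green points), with list medians as black bars and the number of genes tested in parentheses. List medians lie between 0.01 and 0.20, beside 0.00 for all genes; the grey bar spans the 5th to 95th percentile of the single fold changes of all 1023 genes (−0.65 to 0.68) and is no yardstick for a median.

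Genes that the study named at P21 in neurons of these same animals were also followed, and their choice on these samples makes them no independent evidence. Of 21 genes 20 were detected in astrocytes and 6 could be tested, 3 positive and 3 negative, with 0 called, beside 0.587% of all genes lower and 0% higher. Besides Robo2 above, Pak1, a kinase of the cytoskeleton, had a log2 fold change of −0.46 ± 0.47 and Etv5, a transcription factor of FGF signalling, of 0.32 ± 0.49 (edgeR adjusted p = 0.986 for both). The study named Robo2 and Grm3 as higher in WT, and Pak1 and Etv5 as higher in Het. In astrocytes Robo2 and Pak1 had the opposite sign and Etv5 the same, with none of them called. Grm3 averaged 2667 ± 319 CPM (SD) over the 3 WT and 2582 ± 541 over the 5 Het animals.

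The effect of genotype was also compared between the sexes, with 2 WT males, 1 WT female, 2 Het males and 3 Het females in the fit. The interaction called 0 of 1023 genes (0%) by edgeR, with 67 at an unadjusted p under 0.05, and 0 by DESeq2. The lone WT female was assumed to vary like the other groups. Without Het female 2 the interaction called 22 genes, and without Het male 1 it called 4.

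The mutated gene itself was low in these nuclei. Myt1l had 26.4 UMIs in 11 of 154 astrocytes (7.14%), or 64.5 CPM against 956 CPM in the other kept nuclei. Oligodendrocytes had Myt1l UMIs in 6.74% of nuclei, and oligodendrocyte precursors in 35.1% (203 CPM). Per 1000 UMIs of the neuron list, Myt1l had 15.2 UMIs in astrocytes, 16.9 in oligodendrocytes, 14.4 in oligodendrocyte precursors and 18.6 in the other nuclei. By animal it ran from 0 to 192 CPM in WT and from 0 to 243 CPM in Het. It did not pass the count filter, and the frameshift is not read by these counts. Of its family, Myt1 had 4.00 UMIs, and St18, a gene of oligodendrocytes, stood at 492 CPM against 6229 in oligodendrocytes, in 17 nuclei.

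The vector transcript TDTOMATO had 31.0 UMIs in 12 astrocytes (7.79%, 95% Wilson interval 4.51 to 13.1), or 75.8 CPM. The other kept nuclei had 278 CPM, oligodendrocytes 20.7 and oligodendrocyte precursors 14.4. By animal it ran from 0 to 350 CPM, with the highest value in Het female 1. Xist and Uty followed the sex labels in all 12 animals. Xist, the RNA of the inactive X chromosome, had 0 UMIs in astrocytes of every male and 364 to 958 CPM in females, and Uty, a Y-linked gene, had 0 in every female and 130 to 392 CPM in males.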

How the data were processed

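Single-nucleus libraries of 12 P21 cortices (6 WT, 6 Het) were analysed from the deposited matrices. Per the study's methods, the authors demultiplexed, mapped to mm10 and counted with ScaleRna, whose cell calling accounts for ambient RNA; DESeq2 1.38.3 and Seurat 4.3.0 are in the submitters' processing notes. The deposited values are expected counts (estimated counts) of UMIs per gene and nucleus, made by the authors with that pipeline and not normalized, and 92.6% of entries are whole. The matrices hold 78743 barcodes, fewer than the nuclei the study states, and 71914 passed the limits in the report. Astrocytes were named by UMI thresholds, not by the authors' clusters, so differences from the study may come from this. The members and gene lists were chosen with earlier results of these data known, and the comparison cell types (precursors with at least 2 UMIs of Pdgfra and Vcan, oligodendrocytes, microglia) after the data were seen. Doublets were scored with Scrublet (scanpy 1.11.5) and removed in an alternative only.

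Sums per animal were rounded to whole numbers and fitted with edgeR 4.0.16 (R 4.3.3; TMM, filterByExpr, robust quasi-likelihood, genotype only), in animals with at least 10 astrocytes. The plan named the sums of all 12 animals on the condition of at least 10 astrocytes, and 4 animals had fewer. The fit of all 12 without this condition was added after seeing the data. Standard errors of edgeR fold changes were derived from each fold change and its quasi-likelihood test statistic. DESeq2 1.42.0 was an alternative. Scripts were tested on simulated data. CPM totals leave out TDTOMATO, and means ± SD of CPM are over the animals in the fit. Exon lengths and coordinates come from GENCODE vM21. Named genes were the selection, MYT1 family, vector and sex genes; the 5 smallest p in each direction; called genes of a list; from each functional list the highest level per length and the 2 smallest p; the 3 smallest p of the genes the study named; the 10 leading genes by ratio; and the highest gene of each other cell type's list. Others named in the report were chosen after their values were seen. Intervals cover counting error only. Some genes, 1 of the 6 called among them, are not reported here. No column of the matrices was left unused (0 columns).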

Additional observations from a re-analysis of the deposited data

Results flagged for a closer look

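The summed level of the microglia list in astrocytes of Het male 3 was 1.06 UMIs per 1000, against 0.259 in the next Het animal, a gap of 0.777 of the range of the 6 Het animals. This animal had 6 astrocytes and did not enter the genotype fit. It was the 1 value to stand apart this way among 18 groups of 6 animals looked at, and chance sets apart about 1 in 20 groups. Without this animal the difference of the microglia list between Het and WT was −0.704 per 1000 (exact permutation test, p = 0.0433), against −0.548 with it.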

How the results depend on the processing

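The count of 6 calls of Het against WT varied. It was 0 within the study's own limits, with nuclei holding a UMI of another cell type removed (1 WT and 3 Het animals), with the same number of nuclei per animal, with the 3 nuclei of microglial definition removed, with nuclei of 2 microglia list UMIs removed, and with all 12 animals, with or without the block; it was 17 (1 higher, 16 lower) with no filter on low counts. It was 4 to 6 with DESeq2, its size factors, looser or stricter thresholds, high doublet scores removed, a mean of at least 5 counts or a sex term. Leaving out 1 animal gave 1 to 7 calls. Where calls were lost, the log2 fold changes of the 5 genes named, where they could be tested, were negative. With the same number of nuclei Elmo1 was −2.30, Tanc2 −1.78 and Lrmda −1.95, within the study's limits Tanc2 was −1.21 and Lrmda −1.57, and with all 12 animals −1.11 and −1.61 (−0.80 and −1.56 with the block). In these 3 settings Pde3b and Tgfbr1 did not pass the count filter. With the replicate block (sex and number) 0 genes were called, with Pde3b at −3.77, Tgfbr1 −3.77, Elmo1 −3.18, Tanc2 −1.27 and Lrmda −2.82. Same-numbered animals correlated between −0.274 and 0.154 in their deviations. Some of these sums held few nuclei, down to 2 in WT male 1, so this check cannot decide whether the numbers pair the animals. The interaction gave 13 calls with no filter and 0 to 22 with 1 animal left out; without WT female 1 it could not be fitted. The cause was not tested. The fit of nuclei with against without Gfap could not be run. The settings with all 12 animals and with microglial nuclei removed were added after seeing the data.

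The share of astrocytes kept its direction and stayed short of the threshold under all 19 alternatives (difference 0.0341 percentage points without Het female 2, 0.138 without WT female 1). Within the study's limits the median UMI difference reversed to −23.7 (16.0 as reported; −91.7 to 91.8 with 1 animal left out) and the neuron list to −1.39 per 1000 (−1.12 to 0.766). With 1 animal left out, the Gfap difference ran from 7.50 to 13.0 percentage points, the microglia list from −0.714 to −0.428 per 1000, the precursor list from −0.355 to 0.00505 and the endothelial and mural list from −0.0347 to 0.00101. Of 29 genes followed under every setting that could test them, 21 never changed sign. With nuclei holding another type's UMI removed, Hepacam was −0.16, Mertk 0.26, Scd2 −0.36, Tcf7l2 −0.08 and Atp13a4 −0.19. With nuclei of 2 microglia list UMIs removed, Hepacam was −0.06, Tcf7l2 −0.02 and Etv5 −0.16. Pak1 was 0.02 with the replicate block, and Phka1 0.05 with all 12 animals, 0.18 with the block added, and −0.43 to 0.11 with 1 animal left out. With 1 animal left out, Pygb ran from 0.32 to 1.27, Hepacam from 0.25 to 0.90, Rorb from 0.39 to 0.84, Tcf7l2 from 0.20 to 0.96, Scd2 from 0.31 to 0.95, Acsl6 from 0.18 to 0.60, Atp13a4 from 0.10 to 0.50, Etv5 from 0.13 to 0.62 and Pak1 from −0.75 to −0.19. Robo2 was 0.37 with all 12 animals and the block, and 2.24 with the block in the 8. The animals in the fit held 27036 to 65944 astrocyte UMIs each.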
